A study of Mus musculus with 26 samples.

Results

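Nonpeptidergic nociceptors were compared with the mean of the other 7 subtypes of mouse dorsal root ganglion (DRG) neuron, with each subtype weighted alike. They gave 3 of the 26 libraries, chosen by the subtype named in the column of the count table. The other 23 libraries held 5 of Aβ RA-LTMRs (rapidly adapting low-threshold mechanoreceptors) and 3 each of peptidergic nociceptors, C-LTMRs, Aδ-LTMRs, Aβ SA1-LTMRs (slowly adapting type 1), Aβ Field-LTMRs and proprioceptors, the muscle afferents. Neurons were sorted by fluorescence from dissociated ganglia of adult reporter mice, from postnatal day 23, and their RNA was amplified before sequencing.

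Nonpeptidergic nociceptors carried MrgD-EGFP and had no tamoxifen. The peptidergic nociceptors carried CGRP-GFP, the Aβ RA-LTMRs Npy2r-GFP and the proprioceptors PVIRESCre with R26tdtomato(Ai14), all without tamoxifen. C-LTMRs carried ThCreER with R26tdtomato(Ai14) and had tamoxifen at 2 mg/day after birth. Aδ-LTMRs carried TrkBCreER with R26tdtomato(Ai14) and had 2 mg/day before birth. Aβ SA1-LTMRs and Aβ Field-LTMRs both carried TrkCCreER with Retf(GFP), with 3 mg/day before birth for the former and 2 mg/day after birth for the latter. Genotype and tamoxifen therefore cannot be told apart from subtype. Proprioceptors came from thoracic ganglia alone and the other subtypes from all axial levels, and every library pooled neurons of several mice and several sorting rounds.

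Nociceptors are the primary afferents that detect damaging heat, force, cold and chemicals. The nonpeptidergic class sends unmyelinated fibres to the epidermis, binds the plant lectin IB4, depends on the GDNF family receptor Ret and the transcription factor Runx1 in the adult, and is classically told from the peptidergic class by low CGRP and substance P. Mrgprd, a Mas-related G-protein-coupled receptor for β-alanine, defines the largest group of these neurons, and the ATP-gated channel P2rx3 and the sodium channel Scn11a (Nav1.9) are further hallmarks.

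Levels below are in CPM, that is counts over the TMM-scaled library size, given as mean ± SD with n = 3 libraries (n = 5 for Aβ RA-LTMRs) unless single libraries are named. Each log2FC is a log2 fold change fitted by the quasi-likelihood test of edgeR, nonpeptidergic nociceptors minus the equal-weight mean of the other 7 subtypes or minus a named subtype, with its SE. Every adjusted p was corrected by Benjamini and Hochberg's method across all 17411 genes. A gene was called raised or lowered at an adjusted p under 0.05 with a log2FC of at least 1 in size, and called raised or lowered against each subtype when it passed in all 7 pairs. The p-values measure the spread between these pooled libraries. In sorted pools, fewer cells of a type and less RNA per cell cannot be told apart.

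The label was read beside 4 marker genes. These were chosen with earlier results of these data known, so they are no independent check of it. All 4 were raised against each of the other 7 subtypes. A satellite glia score, described below, also follows depth. With it as a covariate, 3 of the 4 passed against each and Scn11a against the mean only. Mrgprd (chromosome 7, 145314835 to 145324086 in mm10) stood at 808, 1183 and 1086 CPM in the nonpeptidergic libraries and at 1.17 to 83.1 CPM, with a median of 21, in the other 23. The groups did not overlap (log2FC 5.62, SE 0.32, adjusted p = 7.0e-13), and the nearest subtype was the peptidergic nociceptor at 66.5 ± 13.9 CPM (log2FC 3.95, SE 0.64, adjusted p = 3.6e-05). This gene drives the reporter used in the sort, so its level is a check on the sort and not an independent finding.

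Scn11a, which carries the persistent tetrodotoxin-resistant sodium current, stood at 2583, 2287 and 2290.5 CPM against 11 to 973 elsewhere (log2FC 4.19, SE 0.21, adjusted p = 9.7e-15). P2rx3, the ATP-gated channel, stood at 449.6, 433 and 457 CPM against 2.39 to 144 (log2FC 4.16, SE 0.19, adjusted p = 4.2e-15). Agtr1a, the angiotensin II type 1a receptor, stood at 99.3, 80.9 and 79.3 CPM against 0.146 to 8.72 (log2FC 5.70, SE 0.26, adjusted p = 3.1e-15). None of the 3 overlapped with another library. Their separation from the nearest subtype differed: against peptidergic nociceptors it was log2FC 1.41, SE 0.37, adjusted p = 0.00362 for Scn11a, log2FC 1.79, SE 0.35, adjusted p = 2.3e-04 for P2rx3 and log2FC 4.08, SE 0.51, adjusted p = 6.7e-07 for Agtr1a. Reads of Agtr1a and its close copy Agtr1b may have been split by the counting.

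**Figure D1:**
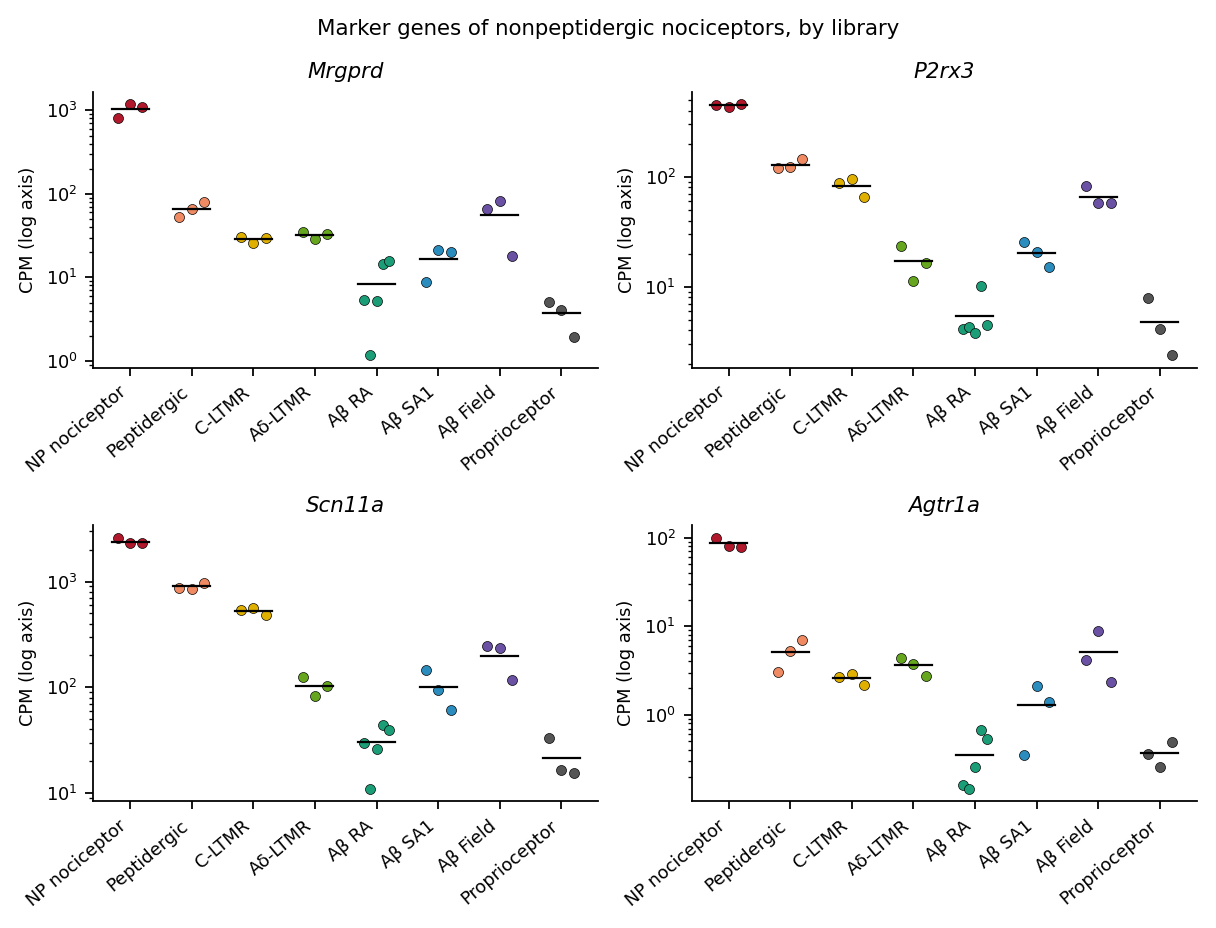
CPM on a log axis of the 4 marker genes in each of the 26 libraries, by subtype; points are libraries and bars the mean of a subtype. The 3 nonpeptidergic libraries lie above all 23 others for each gene, and peptidergic nociceptors and C-LTMRs come next for P2rx3 and Scn11a.

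The sequences around the start sites of 4 raised and 2 lowered genes are shown as examples of genes named in this comparison. They are not the top of a list and not a sample of the tested genes. Each line is the RefSeq window of GRCm38.p6, from 250 bases before to 50 bases after the start of the gene, 5′ to 3′ on the strand of the gene, with each CpG pair in capitals. Mrgprd lies at chr7:145314585-145314884 on the + strand, Scn11a at chr9:119825407-119825706 on the - strand, Otoa at chr7:121083174-121083473 on the + strand and Lpar3 at chr3:146220711-146221010 on the + strand. Of the lowered genes, Pgr lies at chr9:8899583-8899882 on the + strand and Scn1a at chr2:66440788-66441087 on the - strand.
Mrgprd: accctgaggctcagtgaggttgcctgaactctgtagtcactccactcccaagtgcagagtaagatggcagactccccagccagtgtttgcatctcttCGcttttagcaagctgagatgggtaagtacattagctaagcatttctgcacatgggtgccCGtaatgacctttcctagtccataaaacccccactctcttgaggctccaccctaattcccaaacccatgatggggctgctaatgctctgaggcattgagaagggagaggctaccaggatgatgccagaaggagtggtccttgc
Scn11a: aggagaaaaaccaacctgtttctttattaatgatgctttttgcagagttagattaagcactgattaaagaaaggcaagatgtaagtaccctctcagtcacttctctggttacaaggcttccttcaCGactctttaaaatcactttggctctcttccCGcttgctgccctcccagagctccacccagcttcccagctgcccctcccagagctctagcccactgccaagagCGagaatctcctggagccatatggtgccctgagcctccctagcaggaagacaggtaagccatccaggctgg
Otoa: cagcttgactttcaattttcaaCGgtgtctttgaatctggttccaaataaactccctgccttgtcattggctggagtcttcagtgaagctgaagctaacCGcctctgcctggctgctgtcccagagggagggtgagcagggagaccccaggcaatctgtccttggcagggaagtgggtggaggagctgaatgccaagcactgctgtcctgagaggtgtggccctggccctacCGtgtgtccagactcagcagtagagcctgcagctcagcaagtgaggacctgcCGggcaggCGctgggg
Lpar3: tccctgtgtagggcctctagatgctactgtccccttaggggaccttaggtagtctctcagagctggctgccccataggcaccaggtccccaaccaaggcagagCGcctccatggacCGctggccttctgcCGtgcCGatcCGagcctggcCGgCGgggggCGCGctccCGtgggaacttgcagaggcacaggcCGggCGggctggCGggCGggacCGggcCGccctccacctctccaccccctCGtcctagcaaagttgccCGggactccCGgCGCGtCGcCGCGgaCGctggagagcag
Pgr: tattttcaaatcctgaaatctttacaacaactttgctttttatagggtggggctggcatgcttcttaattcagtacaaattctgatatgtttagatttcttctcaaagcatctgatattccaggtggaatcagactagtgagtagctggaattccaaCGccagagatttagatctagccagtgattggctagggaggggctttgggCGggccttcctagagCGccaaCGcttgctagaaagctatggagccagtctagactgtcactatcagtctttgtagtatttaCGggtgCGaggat
Scn1a: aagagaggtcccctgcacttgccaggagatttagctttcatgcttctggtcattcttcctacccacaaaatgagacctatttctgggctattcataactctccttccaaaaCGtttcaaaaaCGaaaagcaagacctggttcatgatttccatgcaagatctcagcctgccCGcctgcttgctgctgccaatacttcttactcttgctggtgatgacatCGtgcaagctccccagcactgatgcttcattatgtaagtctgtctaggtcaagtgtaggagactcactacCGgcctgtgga
Lpar3 held 25 CpG pairs in its window, Mrgprd 2, Scn11a 3, Otoa 5, Pgr 6 and Scn1a 5. None of the 6 windows held the RUNX core TGTGGT or its reverse complement ACCACA, which says only that these letters are not in these windows. Among tested genes with 1 start in the table, 12.1% of 9418 windows held the core, the median was 20 CpG pairs and 9.74% had fewer than 5. The genes raised against each subtype had the core in 29 of 209 windows (13.9%), a median of 21 CpG pairs and 8.61% under 5. Genes lowered against each had it in 52 of 584 windows (8.9%), a median of 18 pairs and 10.4% under 5. Windows of Agtr1a and P2rx3 were not used here.

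Against the mean of the other 7 subtypes, 2378 of the 17411 genes tested were raised (13.7%) and 2948 were lowered (16.9%), together 5326 (30.6%). The counts of raised and lowered family members below are to be read beside these shares. The median log2FC of all genes was 0.02. The direction split depended on the scale: 44.6% of the called genes were raised here, and 34.1% (1297 raised against 2507 lowered) when the authors' regularized log2 values were tested instead. Against each subtype, 357 genes were raised (2.05%) and 1132 lowered (6.5%). The 3 libraries lay above all 23 others for 9.78% of the genes tested and below all of them for 8.54%.

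Libraries that stood apart were checked first. Aδ-LTMR libraries 1 and 2 had mapping rates of 61.4% and 74.5% against 86.1% to 97.7% elsewhere, and without them 241 genes in place of 357 were raised against each subtype. Among genes followed by name, Chrm4, Efna1, Fxyd2, Gnaq, Kcnma1, Kcnn1, Lpar5 and Nupr1 then lost the raised call against each, and Rerg and Runx3 the lowered call. All Aβ SA1-LTMR libraries, and Aβ RA-LTMR libraries 1 to 3, listed reads of 25 to 50 bases and most others, the nonpeptidergic ones included, of 15 to 50. With this read-length class as a covariate 249 genes were raised against each subtype. Of the 53 genes raised against each subtype and followed by name, 8 lost that call with the covariate: Chrm4, Efna1, Fam167a, Fxyd2, Lpar5, Mrgpra2b, Nupr1 and Smim5. Of 107 followed as lowered against each, Igf1, Lpar1, Nr4a1 and Runx3 lost it. Leaving out any 1 of the 26 libraries ended the raised call against each for 10 of the 53 in at least 1 case, namely Bnc1, Chrm4, Fxyd2, Gna14, Gnaq, Htr4, Kcng2, Kcng3, Kcnma1 and Klk5. It ended the lowered call for 16 of the 107, namely Ano1, Fgf11, Hapln4, Kcna2, Kcnk1, Kit, Nr4a1, P2rx6, Pmaip1, Ptgfr, Rerg, Runx3, S100b, Slc17a7, Sowahb and Tacr3. The nonpeptidergic libraries held 40767934 to 56828599 counts, within the 10706522 to 66309214 of all 26.

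Markers of satellite glia, the cells that wrap DRG somata, were lower in the nonpeptidergic libraries than elsewhere. The summed level of the 16 satellite glia genes was 572 to 718 CPM in the nonpeptidergic libraries and 968 to 6658 CPM in the others, and 13 of 16 members were lowered and none raised. S100b, a calcium-binding protein of glia that large neurons also express, stood at 14.9 ± 7.72 CPM against 22.9 to 1040.5 in other libraries (log2FC -4.62, SE 0.29, adjusted p = 1.1e-12). The gap junction gene Gja1 (log2FC -3.50, SE 0.44, adjusted p = 2.4e-07) and the glial glutamate transporter Slc1a3 (log2FC -3.47, SE 0.32, adjusted p = 9.5e-10) were also lowered. A satellite glia score was the mean over these 16 genes of log2 values that were not divided by each library's own size. The score therefore follows sequencing depth as well as glia RNA. Aβ Field-LTMR library 2, the shallowest, had 3012 CPM of these genes, yet its score of 4.04 lay within the nonpeptidergic 3.64 to 4.53. With that score as the satellite glia covariate, 2371 genes were raised and 2477 lowered, of which 1705 and 2288 were also called without it. A fit with this covariate does not separate glia RNA from depth. Against each subtype, 20 of the 53 raised genes followed by name lost the call: Bnc1, Cd24a, Chrm4, Efna1, Fam167a, Gna14, Gnaq, Htr4, Kcng3, Kcnip2, Kcnma1, Klk5, Nupr1, Plxnc1, Prkcd, Scn11a, Slc14a1, Smim5, Trpc6 and Wnt2b. Of the 107 lowered genes, Fgf11, Kcnk1, Nr4a1, Ptgfr and Rerg lost it. The part of satellite glia RNA in these differences was not tested.

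**Figure D2:**
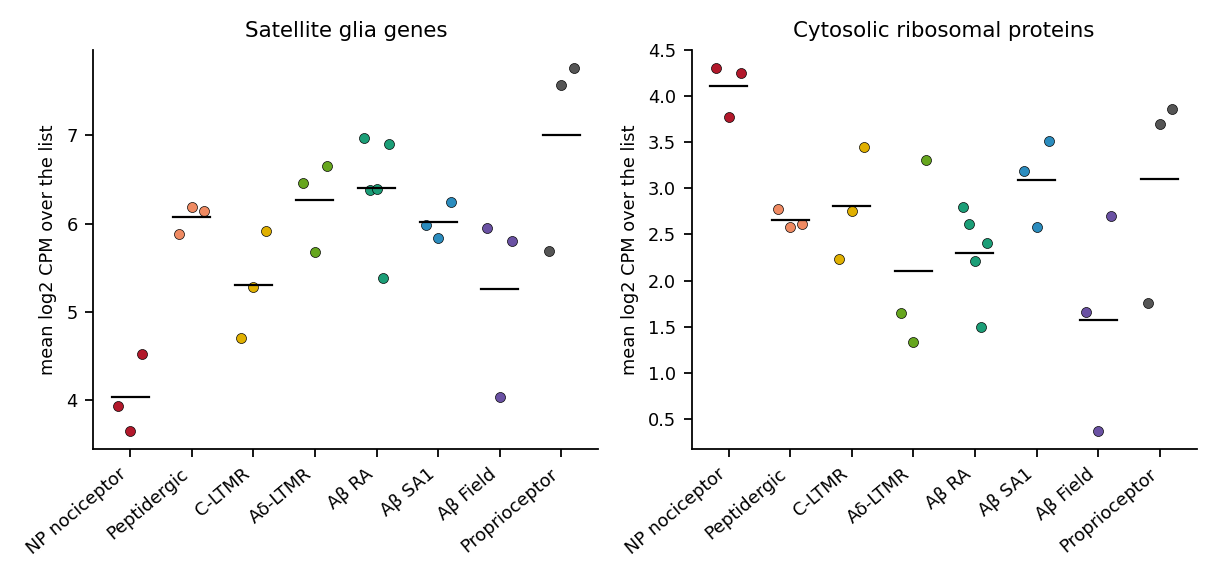
Mean of log2 values over the 16 satellite glia genes (left) and the 63 cytosolic ribosomal protein genes (right) in each library, by subtype. Points are libraries and bars the mean of a subtype. The values, named log2 CPM on the axis, were not divided by each library's own size and also follow depth. Summed CPM of the nonpeptidergic libraries, given in the text, does not overlap with the others for either list. Nonpeptidergic libraries are at the low end of the first panel, with 1 Aβ Field-LTMR library among them, and at the high end of the second, where proprioceptor libraries 2 and 3 come next to nonpeptidergic library 2.

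Several of the largest rises were genes at low levels in every other subtype. Ms4a3, a membrane protein of the MS4A family, stood at 39.6, 32.5 and 31 CPM against 0 to 5.96 with a median of 0.306 elsewhere (log2FC 6.68, SE 0.40, adjusted p = 4.3e-13), and its nearest subtype was the C-LTMR at 3.52 ± 2.13 CPM. Slc14a1, a urea transporter, stood at 32.7, 63.8 and 31.2 CPM against 0 to 5.66 (log2FC 6.56, SE 0.48, adjusted p = 2.5e-11). Otoa, which encodes otoancorin, a protein of inner ear attachment, stood at 21.5, 18.3 and 23.1 CPM against 0 to 1.17 (log2FC 6.03, SE 0.45, adjusted p = 2.8e-11). Each of the 3 was separated from all 23 libraries.

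Klk5, a secreted serine protease (10.8 ± 1.39 CPM, log2FC 6.12, SE 0.49, adjusted p = 8.0e-11), Smim5, a small membrane protein (13.9 ± 2.37 CPM, log2FC 5.86, SE 0.48, adjusted p = 1.2e-10), and Nrn1l, a GPI-anchored neuritin relative (6.29 ± 0.28 CPM, log2FC 5.73, SE 0.38, adjusted p = 3.0e-12), were raised in the same way at lower levels. Cyp26b1, the enzyme that degrades retinoic acid, had no count in any Aβ SA1-LTMR library. It stood at 10.5, 18.1 and 20.1 CPM, with peptidergic nociceptors nearest at 0.831 ± 0.196 CPM (log2FC 4.28, SE 0.69, adjusted p = 3.1e-05). Nupr1 (5.8 ± 1.06 CPM), Mroh2b (12.4 ± 1.62) and the zinc finger factor Bnc1 (8.73 ± 2.04) also had no count in Aβ SA1-LTMRs. Their nearest differences were log2FC 3.79, SE 0.90, adjusted p = 0.00143, against Aδ-LTMRs, log2FC 2.83, SE 0.76, adjusted p = 0.00533, against C-LTMRs and log2FC 2.74, SE 0.93, adjusted p = 0.0227, against peptidergic nociceptors.

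By the smallest of the 7 differences, the genes most apart from every other subtype were Otoa (log2FC 4.55, SE 0.90, adjusted p = 2.7e-04, against peptidergic nociceptors), Lpar5 (log2FC 4.503, SE 1.05, adjusted p = 0.00163, against C-LTMRs), Cyp26b1, Agtr1a, Lpar3, Fam167a, Prkcq and Mrgprd. Lpar3, a receptor for lysophosphatidic acid (LPA), stood at 408, 352 and 346 CPM against 0.586 to 38 (log2FC 5.72, SE 0.29, adjusted p = 2.7e-14). Lpar5, another LPA receptor, stood at 35.8, 34.1 and 33.6 CPM against 0 to 3.88 (log2FC 5.28, SE 0.52, adjusted p = 7.5e-09). Prkcq, the theta isoform of protein kinase C, stood at 375, 333 and 369.5 CPM against 0.0458 to 29.2 (log2FC 5.23, SE 0.40, adjusted p = 2.4e-10). Fam167a, whose role is less known, stood at 48.8, 60.6 and 53.9 CPM against 0 to 5.67 (log2FC 5.06, SE 0.49, adjusted p = 6.9e-09). None of the 4 overlapped with another library.

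A wider list of 21 genes of the nonpeptidergic class had all 21 members raised, 17 of them against each subtype, with a median log2FC of 4.17. It was drawn up with results of these data known and is not independent evidence. Markers of the neighbouring itch neurons, which express Mrgpra3 or somatostatin, had 8 of 12 members raised, 1 lowered and none raised against each. Mrgpra3, a receptor for chloroquine, stood at 27.6 ± 9.73 CPM, above the mean of the 7 (log2FC 2.99, SE 0.42, adjusted p = 2.5e-06) but below peptidergic nociceptors at 164 ± 22.5 CPM (log2FC -2.57, SE 0.72, adjusted p = 0.0068). Mrgprx1 stood at 17.3 ± 3.7 CPM in nonpeptidergic and 27.6 ± 4.35 CPM in peptidergic nociceptors, a difference that did not pass (log2FC -0.67, SE 0.68, adjusted p = 0.471).

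Of the peptidergic markers, 3 of 14 were raised and 8 lowered. The 3 rises, of Calca, Tac1 and Trpv1, depended on the processing: 1 remained raised by upper-quartile scaling, by DESeq2 and with the satellite glia covariate, and none on the authors' regularized log2 values. Calca, which encodes CGRP, stood at 396 ± 86.4 CPM, which is above the mean of the 7 (log2FC 1.07, SE 0.39, adjusted p = 0.0263) and below the 3556 ± 289 CPM of peptidergic nociceptors (log2FC -3.17, SE 0.62, adjusted p = 2.8e-04). Peptidergic nociceptors were sorted by CGRP-GFP, so their Calca level is a check on that sort and not an independent finding. Tac1, the substance P precursor, stood at 156 ± 16.6 against 671 ± 99.2 CPM (log2FC -2.11, SE 0.43, adjusted p = 3.6e-04), and the heat and capsaicin channel Trpv1 at 22.5 ± 4.34 against 171 ± 19.97 CPM (log2FC -2.92, SE 0.63, adjusted p = 7.8e-04). The rise of Calca above the mean was no longer called without nonpeptidergic library 1 (log2FC 0.92, adjusted p = 0.139) or 2 (log2FC 1.04, adjusted p = 0.0875), or without Aδ-LTMR library 2 (log2FC 0.95, adjusted p = 0.0369), nor with the satellite glia (adjusted p = 0.383) or read-length (adjusted p = 0.171) covariate. That of Trpv1 was lost without any of the nonpeptidergic libraries, Aδ-LTMR library 2 or Aβ SA1-LTMR library 2 (log2FC 0.93 to 1.21), and with the satellite glia (adjusted p = 0.530) or read-length (adjusted p = 0.0738) covariate. Kit, the stem cell factor receptor, was lowered against each subtype (5.38 ± 0.828 CPM, log2FC -2.99, SE 0.30, adjusted p = 4.7e-09). Among 10 C-LTMR markers 2 were raised and 5 lowered, or 3 lowered with either covariate. Th, the tyrosine hydroxylase, stood at 3.21 ± 1.5 CPM against 398 ± 57.1 in C-LTMRs, whose sort used ThCreER and so depended on this gene. The zinc finger factor Zfp521 was lowered against each subtype (5.47 ± 2.18 CPM, log2FC -3.43, SE 0.30, adjusted p = 5.7e-10).

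Among receptors, the Mas-related family had 9 of 14 tested members raised and 2 lowered (median log2FC 3.14). Mrgprb5 stood at 35.7 ± 14.5 CPM against 23.4 ± 4.69 in peptidergic nociceptors (log2FC 0.61, SE 0.68, adjusted p = 0.512) and under 2 CPM in each other subtype. Mrgpra2b was raised against each subtype (17.2 ± 6.67 CPM, log2FC 4.86, SE 0.39, adjusted p = 9.3e-11), with the reservation that its near-identical copy Mrgpra2a can share its reads. Purinergic receptors, which sense ATP and other nucleotides, split: 3 of 13 were raised and 5 lowered. P2rx3 led the rises, while P2rx6 was lowered against each subtype (0.798 ± 0.369 CPM, log2FC -4.36, SE 0.29, adjusted p = 3.9e-12) and P2rx5 against the mean (1.06 ± 0.232 CPM, log2FC -2.38, SE 0.22, adjusted p = 1.3e-09).

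Lipid mediator receptors had 10 of 22 raised and 8 lowered (median log2FC 0.81). Beside Lpar3 and Lpar5, the prostaglandin D2 receptor Ptgdr was raised against each subtype (238, 189 and 219 CPM against 1.77 to 47 elsewhere, log2FC 4.22, SE 0.25, adjusted p = 3.7e-13). The orphan receptor Gpr35 was raised against the mean (113 ± 13.4 CPM, log2FC 3.43, SE 0.16, adjusted p = 3.7e-15) and stood at 115 ± 9.69 CPM in C-LTMRs. Lpar1, another LPA receptor (10.01 ± 2.47 CPM, log2FC -2.45, SE 0.34, adjusted p = 1.0e-06), and the sphingosine 1-phosphate receptor S1pr3 (13.7 ± 1.06 CPM, log2FC -3.05, SE 0.33, adjusted p = 2.2e-08), were lowered against each subtype. Ptgfr, the prostaglandin F receptor, stood at 2.37, 0.0693 and 0.365 CPM against 1.44 to 355 (log2FC -5.01, SE 0.60, adjusted p = 1.8e-07), with its highest level in Aβ Field-LTMRs.

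Receptors for peptides and hormones were often lowered, with 5 of 46 raised (3 with the satellite glia covariate) and 24 lowered (median log2FC -1.74). The raised share, 10.9%, was near the 13.7% of all genes, and the lowered share was 52.2% beside 16.9%. Beside Agtr1a, the protease-activated receptor F2rl2 was raised (387 ± 14.1 CPM, log2FC 3.27, SE 0.29, adjusted p = 1.0e-09). Cckar, the cholecystokinin A receptor, stood at 4.78 ± 0.795 CPM against 238 ± 2.46 in C-LTMRs (log2FC -3.37, SE 0.37, adjusted p = 2.0e-08), and the parathyroid hormone receptor Pth1r at 0.300 ± 0.16 CPM against 66.3 ± 14.2 in proprioceptors (log2FC -4.40, SE 0.41, adjusted p = 1.7e-09). Tacr3, the neurokinin B receptor, was lowered against each subtype (0.0265 ± 0.0238 CPM, log2FC -6.10, SE 0.80, adjusted p = 4.5e-07). Of 5 opioid and cannabinoid receptors tested, 3 were lowered and none raised, among them Cnr1 (23.9 ± 13.7 CPM, log2FC -1.45, SE 0.24, adjusted p = 1.8e-05).

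Amine receptors had 10 of 34 raised and 16 lowered (median log2FC -1.61), and with the satellite glia covariate 6 were raised and 15 lowered. The serotonin receptor Htr4 stood at 31.2, 38.1 and 40.7 CPM against 0.168 to 14.1 (log2FC 4.004, SE 0.32, adjusted p = 9.9e-11) and was raised against each subtype, as was the muscarinic receptor Chrm4 (8.26 ± 0.504 CPM, log2FC 2.62, SE 0.32, adjusted p = 1.5e-07). Of the 3 amine receptors raised against each, none passed against each with the satellite glia covariate and 1 with the read-length covariate. Htr2a (22.1 ± 2.35 CPM, log2FC 2.79, SE 0.19, adjusted p = 3.7e-12) and the α2B adrenoceptor Adra2b (5.31 ± 2.92 CPM, log2FC 4.003, SE 0.50, adjusted p = 2.3e-07) were raised against the mean. In the opposite direction, Htr7 stood at 0.428, 0.185 and 0.249 CPM against 1.23 to 76.4 (log2FC -5.81, SE 0.43, adjusted p = 1.9e-11). Htr1d, the serotonin receptor that triptans act on, stood at 2.53, 0.878 and 1.87 CPM against 2.97 to 236 (log2FC -5.36, SE 0.34, adjusted p = 1.1e-12), and Chrm2 at 0.343 ± 0.129 CPM (log2FC -5.70, SE 0.43, adjusted p = 3.1e-11). All of these falls held against each of the 7 subtypes.

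Of the 9 metabotropic glutamate and GABA-B receptors tested, 5 were lowered and only Grm7 was raised (82.8 ± 4.27 CPM, log2FC 1.57, SE 0.13, adjusted p = 1.4e-10). Grm4 stood at 0.998, 0.416 and 0.961 CPM against 2.65 to 93.2 (log2FC -5.08, SE 0.31, adjusted p = 5.4e-13) and Grm8 at 0.587 ± 0.788 CPM (log2FC -4.98, SE 0.53, adjusted p = 1.6e-08). Cytokine receptors split 7 raised to 7 lowered of 25. Il6st (gp130), the shared signalling subunit of interleukin-6 type receptors, was at 1596 ± 65.1 CPM (log2FC 1.86, SE 0.15, adjusted p = 5.3e-11), and its partner Osmr, for oncostatin M (52.7 ± 20.3 CPM, log2FC 2.63, SE 0.26, adjusted p = 3.0e-09), was raised. Il31ra, which joins Osmr in the receptor for the itch cytokine IL-31, was raised too (9.14 ± 4.65 CPM, log2FC 1.88, SE 0.35, adjusted p = 7.7e-05). Osmr was at 103 ± 14.9 CPM in peptidergic nociceptors, and none of the cytokine receptors was raised against each subtype. Cntfr, the ciliary neurotrophic factor receptor, stood at 2.89, 3.26 and 2.44 CPM against 39.8 to 107 (log2FC -4.24, SE 0.23, adjusted p = 4.2e-14), and the interleukin-1 receptor Il1r1 at 0.957 ± 0.516 CPM (log2FC -3.59, SE 0.43, adjusted p = 1.1e-07), both lowered against each.

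Sodium channels divided by subunit. Scn10a (Nav1.8) stood at 2443, 2358 and 2258 CPM against 8.79 to 1425 (log2FC 4.10, SE 0.28, adjusted p = 8.7e-12), although against peptidergic nociceptors (1321 ± 90.4 CPM) it did not pass (log2FC 0.83, SE 0.49, adjusted p = 0.191). Scn1a (Nav1.1), a channel of large myelinated afferents, stood at 11.5, 1.29 and 3.28 CPM against 32.7 to 804 (log2FC -5.79, SE 0.48, adjusted p = 1.6e-10). Scn8a (Nav1.6), the main channel of nodes of Ranvier, stood at 32, 33.5 and 29.8 CPM against 114 to 791 (log2FC -3.54, SE 0.23, adjusted p = 2.1e-12). For none of the 3 did the nonpeptidergic libraries overlap with the others.

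Scn1a and Scn8a were lowered against each of the 7, and Scn9a (Nav1.7) was at 627 ± 28.6 CPM and did not pass (log2FC 0.63, SE 0.22, adjusted p = 0.0211). Per length, the nonpeptidergic level was 295 ± 21.2 RPKM for Scn11a, 324 ± 11.9 for Scn10a, 32.9 ± 0.69 for Scn9a and 0.703 ± 0.762 for Scn1a. Of 9 accessory genes, 2 were raised and 4 lowered. The channel-binding Fgf13 was raised (1022 ± 58.7 CPM, log2FC 1.65, SE 0.14, adjusted p = 2.9e-10). Fgf11 (1.16 ± 0.75 CPM, log2FC -3.95, SE 0.36, adjusted p = 8.4e-10) was lowered against each, and the β subunit Scn4b against the mean (32.5 ± 13.4 CPM, log2FC -2.47, SE 0.24, adjusted p = 3.7e-09).

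**Figure D3:**
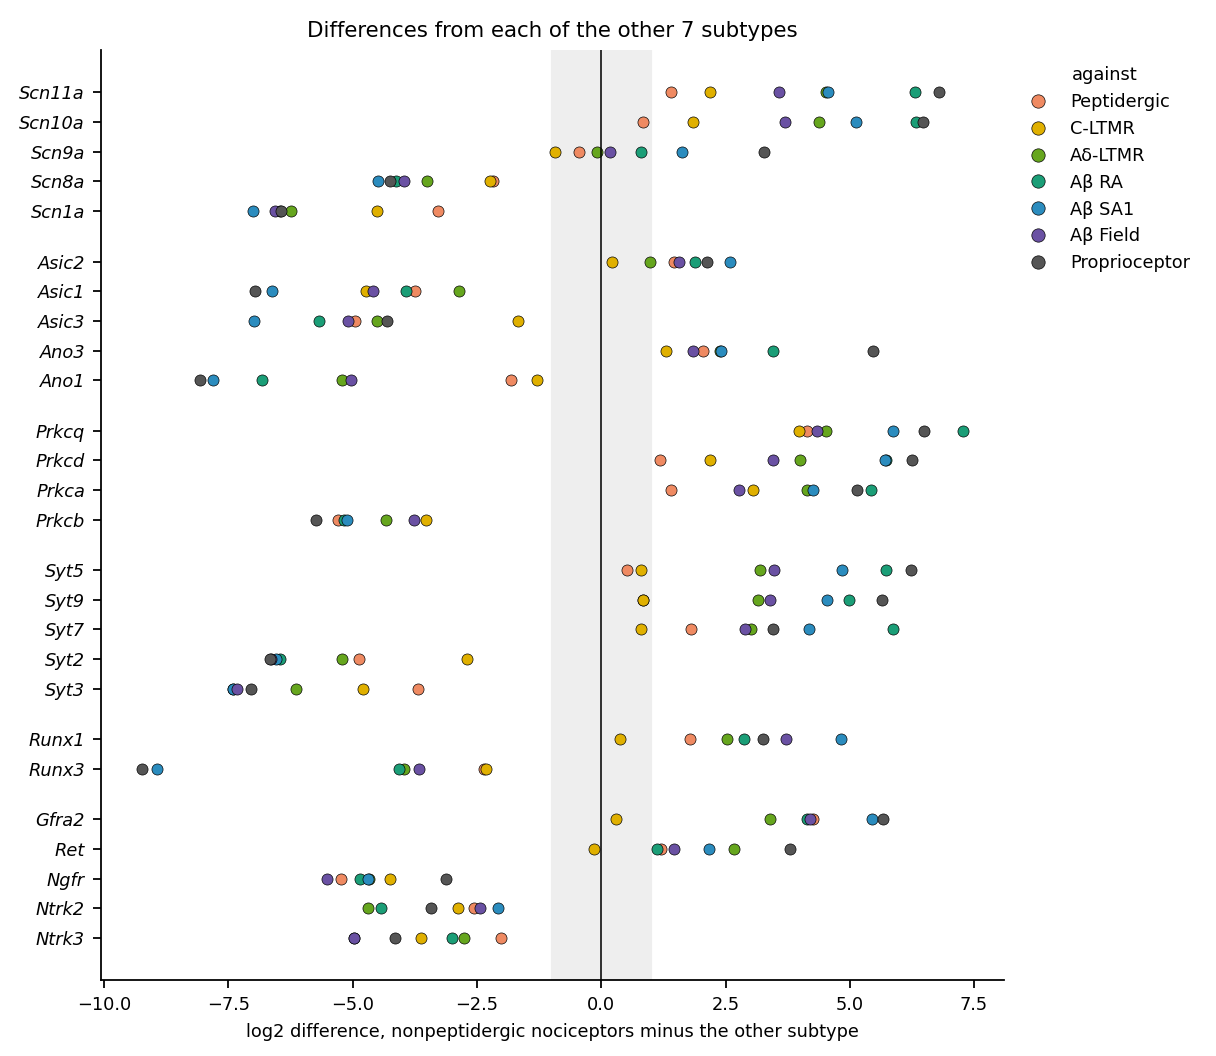
Log2 difference of nonpeptidergic nociceptors from each of the other 7 subtypes (x axis) for members of 6 families (y axis); each point is 1 subtype and the grey band spans -1 to 1. Members of each family lie on opposite sides of 0, and the smallest differences of the raised genes are mostly against peptidergic nociceptors or C-LTMRs.

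Delayed-rectifier potassium channels moved in both directions, with 3 of 10 Kv1 genes raised and 4 lowered, and 1 of 4 Kv3 genes raised and 2 lowered. The Kv1 β subunit Kcnab1 (222 ± 29 CPM, log2FC 1.87, SE 0.15, adjusted p = 5.2e-11) and Kcnc2 (Kv3.2, 24.8 ± 3.04 CPM, log2FC 1.45, SE 0.20, adjusted p = 9.1e-07) were raised against the mean, although Kcnc2 fell short within 1 read-length class (log2FC 0.90) and without proprioceptors (log2FC 0.98). Kcnc1 (Kv3.1) stood at 2.98, 1.76 and 1.56 CPM against 15.5 to 496 (log2FC -5.22, SE 0.25, adjusted p = 5.8e-15), and Kcna1 (67.6 ± 7.69 CPM, log2FC -3.29, SE 0.22, adjusted p = 2.4e-12) and Kcna2 (59.8 ± 7.2 CPM, log2FC -2.21, SE 0.21, adjusted p = 2.3e-09), which sit beside nodes, were lowered against each. Kv7 M-current genes had 5 of 9 lowered, with Kcnq3 at 9.69, 2.77 and 1.43 CPM against 13 to 805 (log2FC -4.70, SE 0.51, adjusted p = 2.4e-08). Kcnh2 (ERG1) was at 2.34 ± 1.09 CPM (log2FC -5.28, SE 0.27, adjusted p = 2.7e-14) and Kcnh5 (EAG2) at 0.254 ± 0.352 CPM (log2FC -6.23, SE 0.54, adjusted p = 4.4e-10), both lowered against each.

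Other potassium channel families also split. Of 11 Kv2 and silent subunit genes 3 were raised and 3 lowered, and of 9 Kv4 channel and partner genes 3 were raised and 1 lowered. The silent Kv2 partners Kcng2 (30.4 ± 2.67 CPM, log2FC 4.21, SE 0.33, adjusted p = 5.6e-11) and Kcng3 (96.3 ± 1.56 CPM, log2FC 3.56, SE 0.25, adjusted p = 8.6e-12) were raised against each subtype, and Kcnf1 against the mean (40.6 ± 9.34 CPM, log2FC 4.58, SE 0.43, adjusted p = 2.4e-09), with C-LTMRs close at 34.3 ± 29 CPM. Kcnip2, a Kv4 partner, stood at 271, 358 and 352 CPM against 2.7 to 143 (log2FC 3.63, SE 0.19, adjusted p = 3.5e-14). Of 11 calcium- and sodium-activated channel genes, 2 were lowered and 5 raised. The 3 raised against each were Kcnt1 (318 ± 26.2 CPM, log2FC 3.04, SE 0.14, adjusted p = 1.9e-15), Kcnn1 (61.3 ± 10.8 CPM, log2FC 2.09, SE 0.16, adjusted p = 3.3e-11) and Kcnma1, the BK pore (103 ± 2.34 CPM, log2FC 1.60, SE 0.14, adjusted p = 4.2e-10). Kcnma1 lost this call with upper-quartile scaling, with DESeq2 and on the authors' regularized log2 values, and Kcnn1 on the last of these. The BK subunit Kcnmb1 was raised against the mean and shared with peptidergic nociceptors (175 ± 69.3 and 127 ± 14 CPM, log2FC 0.46, SE 0.44, adjusted p = 0.435).

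Two-pore-domain leak channels differed by member. Kcnk12 was raised against each (11.7, 11.8 and 11.4 CPM against 0.0306 to 1.58, log2FC 4.51, SE 0.30, adjusted p = 2.8e-12) and Kcnk13 against the mean (24 ± 2.05 CPM, log2FC 3.87, SE 0.37, adjusted p = 1.9e-09). Kcnk18 (TRESK) stood at 23.2 ± 4.69 CPM (log2FC 2.34, SE 0.29, adjusted p = 1.7e-07) beside 24.4 ± 4.78 in peptidergic nociceptors and 25.4 ± 7.7 in Aδ-LTMRs. Kcnk1 (6.68 ± 3.34 CPM, log2FC -3.69, SE 0.27, adjusted p = 1.5e-11) and Kcnk3 (1.09 ± 0.424 CPM, log2FC -3.95, SE 0.28, adjusted p = 9.3e-12) were lowered against each. Kcnj10, a glial inward rectifier on the satellite glia list, was lowered against each (13.9 ± 3.71 CPM, log2FC -2.32, SE 0.23, adjusted p = 4.9e-09). Of the 4 pacemaker channels, 1 was raised and 2 were lowered (median log2FC -1.04), the rise being that of Hcn3 against the mean (37.8 ± 1.77 CPM, log2FC 1.75, SE 0.16, adjusted p = 8.4e-10).

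Voltage-gated calcium channel pores had 2 of 10 raised and 2 lowered, near the 13.7% and 16.9% of all genes. The rises were Cacna1c (69.9 ± 4.18 CPM, log2FC 2.35, SE 0.30, adjusted p = 4.5e-07) and Cacna1b (403 ± 20.4 CPM, log2FC 1.42, SE 0.16, adjusted p = 2.4e-08), with peptidergic nociceptors at 138 ± 10.1 and 367 ± 38.5 CPM. The T-type pore Cacna1h stood at 1.5 ± 0.422 CPM against 231 ± 53.9 in Aδ-LTMRs (log2FC -3.93, SE 0.32, adjusted p = 9.0e-11). The auxiliary subunit Cacng5 was lowered against each subtype (1.54 ± 0.968 CPM against 15.7 to 164 elsewhere, log2FC -5.22, SE 0.34, adjusted p = 1.6e-12).

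TRP channels leaned upward, with 11 of 23 raised and 2 lowered (median log2FC 0.84). Trpc6 stood at 52.3, 38 and 39.1 CPM against 0.135 to 12.3 (log2FC 5.09, SE 0.34, adjusted p = 3.7e-12) and was raised against each subtype. Trpa1, the receptor for mustard oil, was raised against the mean (196 ± 20.8 CPM, log2FC 4.13, SE 0.27, adjusted p = 3.0e-12), but not against peptidergic nociceptors at 135 ± 10.7 CPM (log2FC 0.54, SE 0.46, adjusted p = 0.385). Trpm8, the cold and menthol channel, stood at 1.65 ± 0.152 CPM against 103 ± 32.9 in C-LTMRs (log2FC -2.26, SE 0.57, adjusted p = 0.00193), and Trpm2 was lowered against each (2.58 ± 0.0623 CPM, log2FC -2.64, SE 0.20, adjusted p = 2.4e-11).

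The mechanically gated family member Tmem63a was raised against each subtype (78.3, 83.8 and 83.9 CPM against 0.875 to 25.8, log2FC 3.98, SE 0.18, adjusted p = 2.4e-15), whereas Piezo2 stood at 665 ± 65.8 CPM and did not pass (log2FC 0.15, SE 0.17, adjusted p = 0.512). Proton-gated Asic1 (1.84, 1.39 and 2.32 CPM against 7.02 to 249, log2FC -4.78, SE 0.30, adjusted p = 8.3e-13) and Asic3 (1.54 ± 1.04 CPM, log2FC -4.74, SE 0.37, adjusted p = 4.8e-11) were lowered against each, and Asic2 was raised against the mean (130.1 ± 11.7 CPM, log2FC 1.54, SE 0.12, adjusted p = 3.6e-11). Ano3, a membrane scramblase-type anoctamin, stood at 1495, 1559 and 1448 CPM against 31.5 to 623 (log2FC 2.70, SE 0.10, adjusted p = 9.4e-17), without overlap. Ano1, the calcium-activated chloride channel, stood at 0.374, 0.324 and 0.0663 CPM against 0.272 to 77 (log2FC -5.16, SE 0.44, adjusted p = 2.6e-10) and was lowered against each, although single libraries overlapped.

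Ligand-gated channel families had more falls than rises. Of 18 GABA-A and glycine receptor subunits, 11 were lowered and 1 raised (median log2FC -2.18), with Gabrb2 at 0.263 ± 0.197 CPM (log2FC -5.80, SE 0.47, adjusted p = 1.1e-10) and Gabrg1 at 0.402 ± 0.155 CPM (log2FC -5.61, SE 0.45, adjusted p = 7.3e-11). Of 19 ionotropic glutamate genes, 8 were lowered and 3 raised. Grik1, the kainate receptor subunit GluK1, stood at 458, 431 and 421 CPM against 6.02 to 203 (log2FC 4.17, SE 0.17, adjusted p = 2.8e-16) and was raised against each, while the AMPA subunit Gria3 was lowered against each (1.69 ± 0.429 CPM, log2FC -4.45, SE 0.26, adjusted p = 2.0e-13). Of 11 nicotinic subunits, 7 did not pass, 3 were lowered and 1 was raised, Chrna6 (65.6 ± 30.2 CPM, log2FC 2.79, SE 0.40, adjusted p = 2.9e-06). Chrna3 stood at 1.16 ± 0.342 CPM against 61.2 ± 1.96 in peptidergic nociceptors (log2FC -5.72, SE 0.96, adjusted p = 5.7e-05).

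Neuropeptide genes were present despite the name of the class. Of 27 precursors tested, 7 were raised and 9 lowered, or 5 and 5 with the satellite glia covariate (median log2FC -0.15). Nmb, the neuromedin B precursor, stood at 564, 546 and 569 CPM against 3.12 to 179.9 (log2FC 4.09, SE 0.27, adjusted p = 4.7e-12). Calcb, which encodes βCGRP, stood at 587, 527 and 514 CPM against 5.48 to 229 (log2FC 3.53, SE 0.20, adjusted p = 1.7e-13). Both were raised against each subtype and neither overlapped with another library. Adcyap1, the PACAP precursor, was lowered (5.97 ± 1.13 CPM against 336 ± 62.6 in peptidergic nociceptors, log2FC -2.88, SE 0.30, adjusted p = 1.2e-08), and the granule protein Chgb was lowered against each (40.2 ± 3.41 CPM, log2FC -2.59, SE 0.21, adjusted p = 8.7e-11).

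The TAFA peptides Fam19a1 (1.24 ± 0.765 CPM, log2FC -4.77, SE 0.51, adjusted p = 2.2e-08), Fam19a2 (1.17 ± 1.08 CPM, log2FC -5.14, SE 0.40, adjusted p = 5.0e-11) and Fam19a5 (3.14 ± 0.975 CPM, log2FC -2.99, SE 0.18, adjusted p = 3.0e-13) were lowered against each, and Fam19a4 was raised against the mean, at 31.8 ± 3.38 CPM beside 259.5 ± 21.6 in C-LTMRs. Of 32 secreted growth factors, 13 were lowered and 2 raised. Wnt2b was raised against each (58.7 ± 12.2 CPM, log2FC 3.26, SE 0.19, adjusted p = 2.3e-13), and Fgf9 (0.347 ± 0.200 CPM, log2FC -5.56, SE 0.33, adjusted p = 4.3e-13), Fgf18 (0.536 ± 0.341 CPM, log2FC -4.69, SE 0.33, adjusted p = 7.1e-12) and Igf1 (0.0827 ± 0.129 CPM, log2FC -5.72, SE 0.93, adjusted p = 1.4e-05) were lowered against each.

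Mature nonpeptidergic nociceptors signal through receptors of the GDNF family. Gfra2, the neurturin co-receptor, stood at 862, 851 and 893 CPM against 4.97 to 761 elsewhere (log2FC 3.91, SE 0.23, adjusted p = 3.4e-13), and its difference from C-LTMRs at 709 ± 44.7 CPM did not pass (log2FC 0.29, SE 0.40, adjusted p = 0.606). Ret, the shared signalling receptor, stood at 1231 ± 31 CPM (log2FC 1.76, SE 0.12, adjusted p = 5.0e-12) against 1356 ± 64.6 in C-LTMRs. The Aβ SA1-LTMRs and Aβ Field-LTMRs carried Retf(GFP), a reporter allele of this gene. Their Ret level, which enters the mean, is therefore not independent of genotype, and the effect of the allele was not tested. Ngfr (p75), the shared neurotrophin receptor, stood at 24.8, 19 and 27.3 CPM against 179 to 1372 (log2FC -4.62, SE 0.24, adjusted p = 2.1e-14) and was below all other libraries.

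The BDNF receptor Ntrk2 (TrkB, 20.2 ± 0.74 CPM, log2FC -3.22, SE 0.21, adjusted p = 1.3e-12) and the neurotrophin-3 receptor Ntrk3 (TrkC, 6.17 ± 2.31 CPM, log2FC -3.64, SE 0.33, adjusted p = 8.9e-10) were lowered against each subtype. Aδ-LTMRs were sorted through TrkBCreER, and Aβ SA1-LTMRs and Aβ Field-LTMRs through TrkCCreER. The level of the matching receptor in those subtypes is therefore not independent of the sort. In the family as a whole, 2 of 16 tested members were raised and 8 lowered, 6 of them against each.

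Transcription factors of sensory neurons had 13 of 48 raised, none against each subtype, and 19 lowered, 11 against each. Runx1, which drives the nonpeptidergic programme, stood at 646, 582 and 557 CPM and was raised against the mean (log2FC 2.77, SE 0.28, adjusted p = 6.8e-09), with C-LTMRs at 461 ± 21.4 CPM (log2FC 0.37, SE 0.45, adjusted p = 0.565). Its relative Runx3, a factor of proprioceptors, stood at 0.249, 0 and 0.0994 CPM against 0.156 to 82 (log2FC -4.94, SE 0.77, adjusted p = 7.5e-06), with some overlap between single libraries. Ldb2 (483 ± 35.3 CPM, log2FC 3.81, SE 0.15, adjusted p = 2.7e-16) and Prdm12, a factor required for pain neurons (169.8 ± 16.3 CPM, log2FC 2.95, SE 0.25, adjusted p = 3.9e-10), were raised. Shox2, a factor of touch neurons (0.243 ± 0.138 CPM, log2FC -5.42, SE 0.62, adjusted p = 7.0e-08), and Maf (2.19 ± 0.273 CPM, log2FC -3.63, SE 0.28, adjusted p = 3.5e-11) were lowered against each.

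Nuclear receptors, the transcription factors that bind steroid and other small hormones, were lowered in 25 of 38 and raised in 4 (median log2FC -1.84). Pgr, the progesterone receptor, had the largest of the 12 falls named by size, with 0.0535, 0.0462 and 0 CPM, or 5 counts in all, against 2.3 to 21.7 elsewhere (log2FC -7.77, SE 0.45, adjusted p = 2.4e-13). Esr1, the oestrogen receptor α, stood at 0.374, 0.0693 and 0.149 CPM against 8.79 to 67.4 (log2FC -6.87, SE 0.42, adjusted p = 5.8e-13). Esrrg, an orphan receptor, stood at 1.05 ± 0.547 CPM against 388 ± 30.7 in proprioceptors (log2FC -5.41, SE 0.39, adjusted p = 1.3e-11), and Rxra at 1.18 ± 0.371 CPM (log2FC -3.44, SE 0.27, adjusted p = 7.2e-11). All 4 were lowered against each subtype. With the satellite glia level as a covariate 20 of the 38 were lowered and 2 raised, and Pgr (log2FC -8.28, adjusted p = 3.1e-12) and Esr1 (log2FC -6.96, adjusted p = 5.8e-11) were still among the lowered genes. Thra (126 ± 3.15 CPM, log2FC 1.11, SE 0.12, adjusted p = 1.1e-08) and Rarg (14.3 ± 0.516 CPM, log2FC 2.17, SE 0.19, adjusted p = 3.4e-10) were raised against the mean.

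Genes that carry the signal of Gq-coupled receptors were among those raised against each subtype. Gna14 (356, 336 and 359 CPM against 1.55 to 167, log2FC 4.67, SE 0.24, adjusted p = 2.5e-14) and Gnaq (1399, 1402 and 1218 CPM against 116 to 691, log2FC 2.31, SE 0.12, adjusted p = 1.4e-14), the α subunits that activate phospholipase C, both passed in all 7 pairs. So did the β subunit Gnb4 (509 ± 51.9 CPM, log2FC 4.48, SE 0.15, adjusted p = 5.6e-17) and the γ subunit Gng2 (1359 ± 121 CPM, log2FC 2.76, SE 0.12, adjusted p = 7.1e-16). In all, 10 of 27 G-protein subunits were raised, 5 against each, and 5 lowered. Gnaq lost the call against each with upper-quartile scaling, with DESeq2 and on the authors' regularized log2 values, and Gna14 on the last of these.

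Their target Plcb3, a phospholipase C, stood at 675, 798 and 783 CPM against 9.74 to 345 (log2FC 4.10, SE 0.15, adjusted p = 1.1e-16). Its relative Plcb1 was lowered against each (5.42 ± 0.776 CPM, log2FC -3.14, SE 0.24, adjusted p = 2.5e-11). Protein kinase C isoforms divided in the same way. Prkcd (703 ± 14.6 CPM, log2FC 4.07, SE 0.17, adjusted p = 6.5e-16) and Prkca (1481 ± 196 CPM, log2FC 3.75, SE 0.14, adjusted p = 1.1e-16) were raised against each with Prkcq, and Prkcb stood at 2.32, 0.717 and 1.39 CPM against 16.1 to 91.5 (log2FC -4.71, SE 0.27, adjusted p = 1.5e-13). Dgkb, a diacylglycerol kinase, was lowered against each (0.316 ± 0.313 CPM, log2FC -6.10, SE 0.44, adjusted p = 1.1e-11).

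Of 27 adenylyl cyclases and phosphodiesterases, 6 were raised and 14 lowered. Pde10a was raised against each (132 ± 7.19 CPM, log2FC 2.76, SE 0.14, adjusted p = 2.3e-14), and Adcy5 against the mean (75.2 ± 3.39 CPM, log2FC 2.95, SE 0.20, adjusted p = 3.3e-12) beside 71.5 ± 5.51 in peptidergic nociceptors. Adcy1 (3.53, 0.901 and 2.09 CPM against 26.1 to 236, log2FC -5.55, SE 0.38, adjusted p = 5.1e-12) and Pde4b (2.47 ± 0.614 CPM, log2FC -3.68, SE 0.28, adjusted p = 3.5e-11) were lowered against each. Prkg2, a cGMP-dependent kinase, stood at 0.802, 0.300 and 0.431 CPM against 10.2 to 43.8 (log2FC -5.25, SE 0.27, adjusted p = 2.9e-14). RGS proteins, which end G-protein signals, had 8 of 18 raised and 6 lowered, with Rgs10 at 635 ± 27.8 CPM (log2FC 2.99, SE 0.35, adjusted p = 1.3e-07), Rgs4 at 3041 ± 299 CPM (log2FC 2.47, SE 0.10, adjusted p = 6.8e-16) and Rgs2, lowered against each, at 3.2 ± 0.989 CPM (log2FC -3.28, SE 0.27, adjusted p = 1.6e-10).

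Immunoglobulin-type and GPI-anchored surface proteins moved in both directions. Cd24a, a GPI-anchored sialoglycoprotein, stood at 3599, 3309 and 3517 CPM against 19.8 to 1639 (log2FC 3.56, SE 0.15, adjusted p = 6.8e-16). Cd55, a complement inhibitor, stood at 1552, 1337 and 1335 CPM against 28.6 to 511 (log2FC 3.39, SE 0.14, adjusted p = 4.1e-16). Cd44, the hyaluronan receptor, stood at 1376, 1264 and 1201 CPM against 6.69 to 346 (log2FC 4.51, SE 0.23, adjusted p = 2.4e-14). All 3 were raised against each subtype. In the same list of 35, Thy1 stood at 31.3, 7.9 and 17.6 CPM against 77.8 to 1512 (log2FC -4.92, SE 0.41, adjusted p = 1.5e-10), and Mcam (3.13 ± 1.11 CPM, log2FC -5.58, SE 0.26, adjusted p = 4.1e-15) and Negr1 (0.793 ± 0.491 CPM, log2FC -4.99, SE 0.50, adjusted p = 5.6e-09) were also lowered against each. The list had 10 members raised and 16 lowered.

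Ggta1, the enzyme that makes the terminal α-galactose to which IB4 binds, stood at 86.6, 105 and 80.1 CPM against 0.251 to 17.7 (log2FC 4.45, SE 0.25, adjusted p = 1.0e-13) and was raised against each. St3gal5, which starts ganglioside synthesis, was lowered against each (0.686 ± 0.326 CPM, log2FC -5.51, SE 0.49, adjusted p = 7.5e-10). Nt5e, a surface nucleotidase that turns AMP into adenosine, stood at 161, 163 and 165 CPM against 0.599 to 58.6 (log2FC 4.78, SE 0.20, adjusted p = 8.2e-16). Acpp, the prostatic acid phosphatase with the same activity, stood at 1596 ± 115 CPM beside 1278 ± 72.3 in C-LTMRs (log2FC 0.32, SE 0.30, adjusted p = 0.434). Entpd1, which degrades ATP, was lowered against each (0.881 ± 0.394 CPM, log2FC -3.04, SE 0.35, adjusted p = 7.0e-08).

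Fxyd2, the γ subunit of the sodium pump, stood at 2613, 2486 and 3316 CPM against 6.21 to 1189 (log2FC 4.91, SE 0.39, adjusted p = 4.4e-10) and was raised against each subtype. Atp1b3, a pump β subunit, was raised against the mean (1392 ± 119 CPM, log2FC 2.87, SE 0.19, adjusted p = 1.7e-12). The plasma membrane calcium pumps Atp2b2 (13.5, 4.62 and 6.3 CPM against 36.3 to 1163, log2FC -5.74, SE 0.33, adjusted p = 1.7e-13) and Atp2b3 (6.37 ± 1.24 CPM, log2FC -4.27, SE 0.22, adjusted p = 2.7e-14) were lowered against each. S100a6, a calcium-binding protein, stood at 2074, 1786 and 1945 CPM against 15.4 to 332 (log2FC 4.22, SE 0.29, adjusted p = 1.2e-11). The calcium sensors Vsnl1 (6.22 ± 4.8 CPM, log2FC -5.82, SE 0.35, adjusted p = 4.4e-13) and Pcp4 (4.74 ± 4.28 CPM, log2FC -4.86, SE 0.47, adjusted p = 4.1e-09) were lowered against each.

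Beside Pgr and Esr1, the largest falls included Olfm3, a secreted olfactomedin (0.0344 ± 0.0298 CPM, 6 counts in all, against 0.671 to 28.8, log2FC -7.25, SE 0.50, adjusted p = 6.5e-12), Lingo3, a leucine-rich repeat surface protein (0.0388 ± 0.0195 CPM, log2FC -6.91, SE 0.37, adjusted p = 4.8e-14), and Dok7, an adaptor of the kinase MuSK (0.0383 ± 0.00695 CPM, log2FC -6.82, SE 0.43, adjusted p = 8.9e-13). Slit2, a guidance ligand, stood at 0.552, 0.185 and 0.298 CPM against 3.15 to 222 (log2FC -6.39, SE 0.39, adjusted p = 4.6e-13). Cit, the citron kinase, stood at 0.624, 0.300 and 0.0663 CPM against 4.39 to 64.5 (log2FC -6.27, SE 0.44, adjusted p = 7.5e-12). None of these 5 overlapped with another library.

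Syt3, a synaptotagmin (1.19, 0.393 and 0.232 CPM against 6.18 to 149.7, log2FC -6.26, SE 0.40, adjusted p = 1.7e-12), Nlgn1, a neuroligin (0.147 ± 0.0887 CPM, log2FC -6.23, SE 0.36, adjusted p = 2.4e-13), and Epha6, an ephrin receptor (0.275 ± 0.271 CPM, log2FC -6.18, SE 0.47, adjusted p = 3.0e-11), fell by similar amounts. For these 3 and for Slit2 and Kcnh5 the nearest subtypes were peptidergic nociceptors or C-LTMRs, at 7.92 ± 2.24 CPM for Syt3, 2.66 ± 0.619 for Nlgn1, 2.17 ± 0.731 for Epha6, 3.64 ± 0.175 for Slit2 and 1.95 ± 0.692 for Kcnh5.

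**Figure D4:**
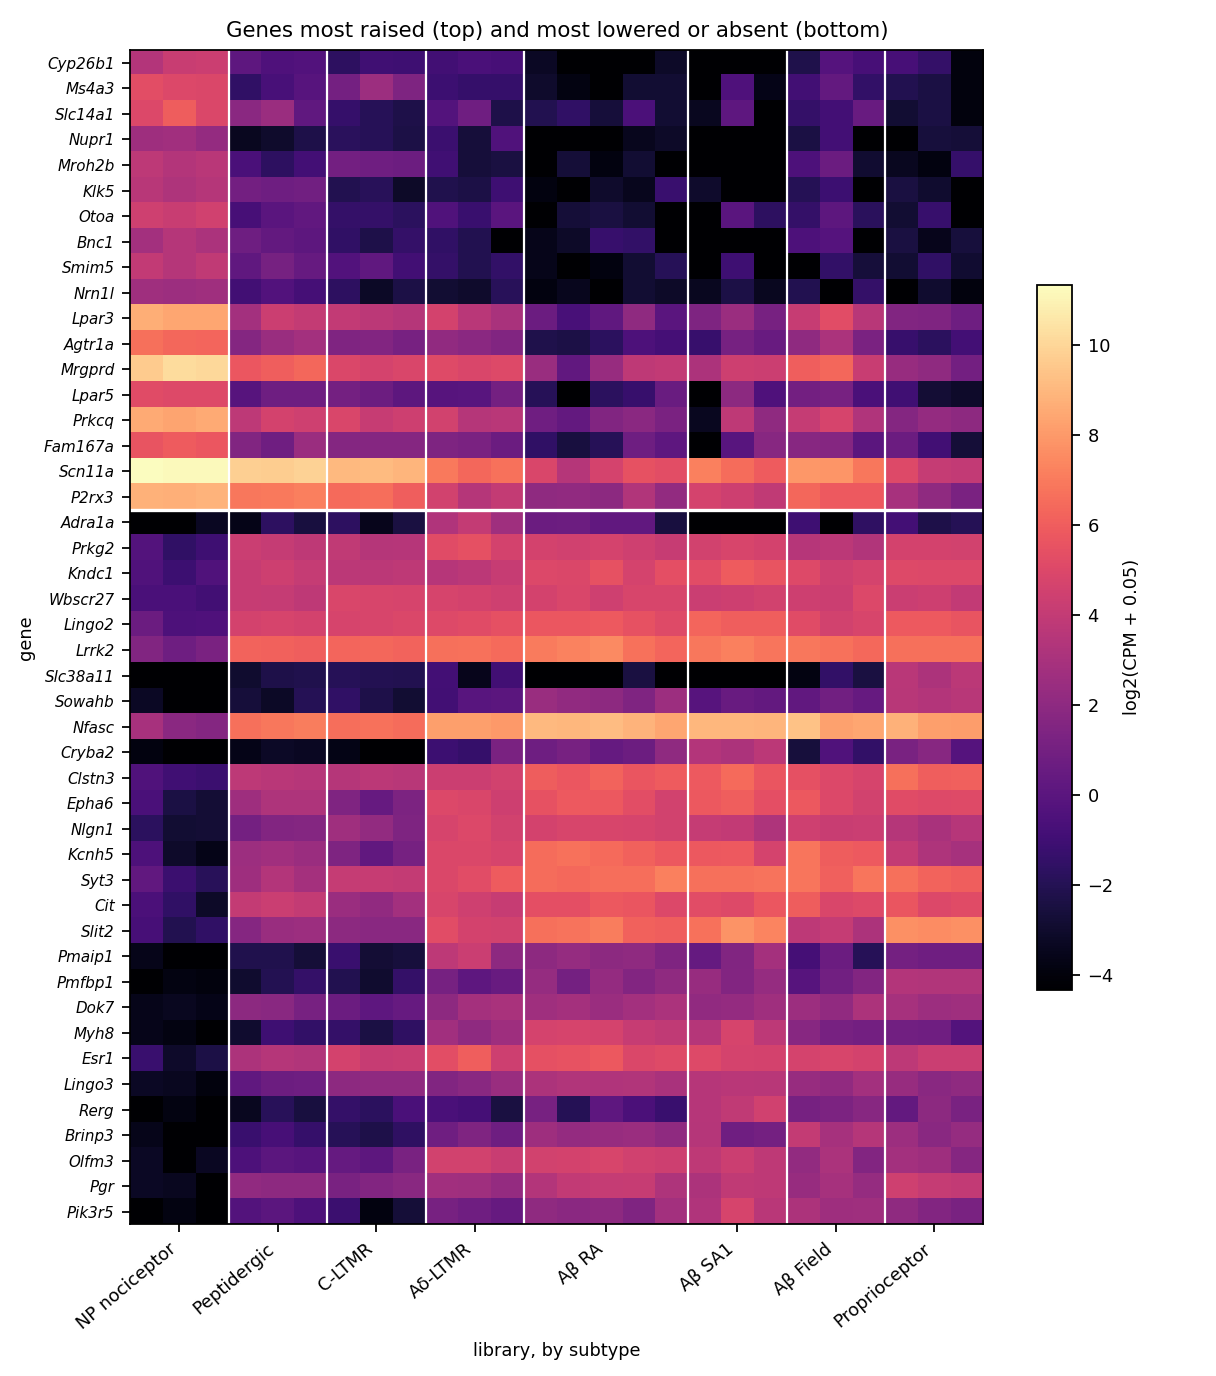
Colour gives log2(CPM + 0.05) of the genes named for the whole comparison (rows) in each of the 26 libraries (columns, by subtype). Raised genes above the white line are brightest in the 3 nonpeptidergic columns; lowered genes below it are dark in those 3 columns and often brightest in A-fibre subtypes.

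A different group was expressed in all 7 other subtypes and was lowered against each of them. Lrrk2, the kinase mutated in familial Parkinson disease, stood at 2.76, 1.64 and 2.37 CPM against 67 to 183 with a median of 101 elsewhere (log2FC -5.45, SE 0.25, adjusted p = 2.9e-15). The nearest subtype was the peptidergic nociceptor at 71 ± 3.93 CPM (log2FC -4.97, SE 0.26, adjusted p = 5.8e-13). Nfasc, which anchors nodes and axon initial segments, stood at 8, 3.65 and 3.13 CPM against 92.2 to 662 (log2FC -5.79, SE 0.33, adjusted p = 1.3e-13), with C-LTMRs nearest at 98.3 ± 5.97 CPM (log2FC -4.32, SE 0.32, adjusted p = 1.1e-10).

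Wbscr27, a methyltransferase-like protein (0.557 ± 0.0661 CPM, log2FC -5.33, SE 0.21, adjusted p = 3.3e-16), Lingo2 (0.966 ± 0.49 CPM, log2FC -5.35, SE 0.26, adjusted p = 7.9e-15), Clstn3, a calsyntenin (0.53 ± 0.176 CPM, log2FC -5.91, SE 0.27, adjusted p = 3.7e-15), and Kndc1, a dendritic signalling protein (0.62 ± 0.177 CPM, log2FC -5.29, SE 0.26, adjusted p = 1.4e-14), had the same form. In the other 23 libraries they stood at 14.4 to 31.9 CPM for Wbscr27, 24 to 79.4 for Lingo2, 11 to 101 for Clstn3 and 11.4 to 61.6 for Kndc1. With the satellite glia level as a covariate the values were log2FC -5.48, adjusted p = 1.4e-12 for Lrrk2, log2FC -5.87, adjusted p = 1.9e-11 for Nfasc and log2FC -6.02, adjusted p = 1.4e-12 for Clstn3.

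The A-fibre markers are genes of large, mostly myelinated afferents. Of these 24 genes, 22 were lowered, 12 against each subtype, and none was raised (median log2FC -3.36). The heavy neurofilament Nefh stood at 165, 132 and 126 CPM against 109 to 4122 (log2FC -3.42, SE 0.22, adjusted p = 1.2e-12), overlapping with C-LTMRs at 158 ± 43 CPM. Hapln4, a link protein of perineuronal matrix, stood at 1.55 ± 1.18 CPM (log2FC -5.21, SE 0.39, adjusted p = 2.7e-11). Node and juxtaparanode genes were lowered in 12 of 19 and raised in 1, with Lgi3 at 2.57 ± 2.4 CPM (log2FC -5.27, SE 0.45, adjusted p = 3.1e-10) and Cntnap5b at 0.227 ± 0.143 CPM (log2FC -5.34, SE 0.47, adjusted p = 5.0e-10) beside Nfasc. The single rise was Ank3, the initial segment anchor (1097 ± 36.7 CPM, log2FC 1.06, SE 0.16, adjusted p = 4.4e-06), with C-LTMRs at 1199 ± 116 CPM, and without Aδ-LTMR library 2 it fell short of the threshold (log2FC 0.997). Prph, the peripherin filament of small neurons, was raised (1337 ± 113 CPM, log2FC 1.30, SE 0.19, adjusted p = 3.2e-06), and the dendritic protein Map2 was lowered against each (21.7 ± 8.87 CPM, log2FC -3.80, SE 0.26, adjusted p = 6.5e-12).

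Adhesion and guidance families leaned downward. Semaphorins and their receptors were lowered in 19 of 31 and raised in 5 (median log2FC -2.23). Sema7a (1.24 ± 0.488 CPM, log2FC -5.23, SE 0.27, adjusted p = 2.5e-14) and Sema5a (3.33 ± 1.22 CPM, log2FC -4.82, SE 0.35, adjusted p = 1.2e-11) were lowered against each. The receptor Plxnc1, a binding partner of Sema7a, stood at 1379, 1207 and 1222 CPM against 38.7 to 573 (log2FC 3.23, SE 0.14, adjusted p = 1.3e-15) and was raised against each. Cadherins and protocadherins were lowered in 17 of 30, with Pcdh7 at 1.7 ± 0.54 CPM (log2FC -5.63, SE 0.26, adjusted p = 2.8e-15). The rises were Cdh1, E-cadherin (625.01 ± 21.9 CPM, log2FC 2.77, SE 0.22, adjusted p = 5.0e-11), and Cdh11 (326 ± 16.6 CPM, log2FC 1.59, SE 0.13, adjusted p = 1.5e-10).

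Integrins, collagens and laminins were lowered in 24 of 37 and raised in none (median log2FC -1.70). Itga9 was at 0.298 ± 0.0837 CPM (log2FC -4.31, SE 0.40, adjusted p = 1.6e-09) and Itga4 at 1.41 ± 0.0736 CPM (log2FC -3.55, SE 0.32, adjusted p = 6.8e-10). Satellite glia genes moved with this list, and with their level as a covariate 17 of the 37 were lowered. Fibroblast genes were also lower, with 5 of 9 lowered and 2 raised (median log2FC -1.43). Their summed level was 12.3 to 19.3 CPM in the nonpeptidergic libraries and 16.2 to 160 CPM in the others, and Dpt, the dermatopontin gene, was at 0. Their part in the falls of collagens and laminins was not tested. Of 38 ephrin, Slit, Robo and netrin genes, 17 were lowered and 1 raised, the ligand Efna1 (30.9 ± 4.49 CPM, log2FC 2.30, SE 0.21, adjusted p = 1.2e-09).

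At the synapse, Slc17a7 (VGLUT1), the vesicular glutamate transporter of myelinated afferents, stood at 2.26, 1.06 and 1.11 CPM against 2.53 to 369.99 (log2FC -5.32, SE 0.32, adjusted p = 4.8e-13). The synaptotagmins, calcium sensors of vesicle release, divided. Syt7 stood at 655, 652 and 688 CPM against 5.77 to 406 (log2FC 3.14, SE 0.20, adjusted p = 1.7e-12), and Syt5 (91.3 ± 7.36 CPM, log2FC 3.54, SE 0.23, adjusted p = 1.9e-12) and Syt9 (287 ± 3.73 CPM, log2FC 3.35, SE 0.18, adjusted p = 6.0e-14) were also raised against the mean. Syt2 stood at 10.1, 1.55 and 4.51 CPM against 28.3 to 723 (log2FC -5.59, SE 0.39, adjusted p = 7.2e-12) and was lowered against each, as was the vesicle protein Sv2b (9.41 ± 3.52 CPM, log2FC -5.59, SE 0.24, adjusted p = 7.8e-16). Of 40 release genes, 9 were raised and 14 lowered (median log2FC 0.01).

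Absence was read from counts. In all, 26 genes had at most 3 counts over the 152291210 of the 3 nonpeptidergic libraries and a mean of at least 5 CPM in another subtype. A total of 3 counts over the group corresponds to 0.0188 CPM, and counts cover sampling error only. Myh8, an embryonic-type muscle myosin, had 3 counts against 22.4 ± 5.57 CPM in Aβ RA-LTMRs and 17.3 ± 8.53 in Aβ SA1-LTMRs, a ratio of 1190 to the former (95% exact Poisson interval 407 to 5772). Pik3r5, a PI3-kinase regulatory subunit, had 1 count against 16.5 ± 9.24 CPM in Aβ SA1-LTMRs, a ratio of 2638 (473 to 104191). Rerg, a small GTPase, had 1 count against 16.3 ± 5.59 CPM there, a ratio of 2607 (468 to 102954). Brinp3, a neuronal secreted protein, had 2 counts against 11.6 ± 4.41 CPM in Aβ Field-LTMRs, and Pmaip1, the death-promoting protein Noxa, 2 counts against 12.3 ± 7.7 in Aδ-LTMRs.

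No count was found for Slc38a11, an amino acid transporter relative, which was at least 616-fold lower than in proprioceptors (11.6 ± 2.24 CPM). Its absence was not particular to this subtype: it stood at 0 in Aβ SA1-LTMRs and at 0.0267 to 0.342 CPM in the rest. Neither Slc38a11 nor Adra1a, given below, was called lowered against the mean. The other 3 genes without a count, named here after their values were seen, were Drd2, Srpx2 and Npy. The dopamine receptor Drd2 was at least 525-fold lower than in Aβ SA1-LTMRs (9.85 ± 3.19 CPM) and Srpx2, a secreted sushi-domain protein, at least 279-fold lower than in proprioceptors (5.24 ± 0.97 CPM). Npy, a neuropeptide, stood at 6.43 ± 7.41 CPM in Aβ SA1-LTMRs, where the libraries spread widely. It was also at 0 in Aβ RA-LTMRs, as Adra1a was in Aβ SA1-LTMRs. Adra1a, the α1A adrenoceptor, had 3 counts against 10.7 ± 4.89 CPM in Aδ-LTMRs, Sowahb 3 against 11.6 ± 0.962 and Pmfbp1 2 against 10.3 ± 0.322 in proprioceptors, and Cryba2, a crystallin, 1 against 10.8 ± 1.97 in Aβ SA1-LTMRs. No gene of the 26 reached 5 CPM in more than 3 subtypes, and for 13 of them the nonpeptidergic libraries were below all other 23. Ankrd35 and Rapgefl1, named here after their values were seen, reached 1 CPM in 6 of the 7 other subtypes. The only gene with at most 3 counts here and at least 1 CPM in each other subtype was the transcript A930017M01Rik, at 1.06 to 3.6 CPM there.

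Without nonpeptidergic library 1 there were 72 absent genes, and without library 3 there were 47.

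Nuclear genes of energy metabolism mostly did not pass. Of 63 nuclear oxidative phosphorylation genes, 59 did not pass (median log2FC 0.12), and of 36 glycolysis and TCA cycle genes 28 did not. The number of oxidative phosphorylation genes raised was 3, and 12 with the satellite glia covariate. The 13 genes encoded in mitochondrial DNA summed to 4754 to 5812 CPM here and to 6095 to 25907 CPM elsewhere. Of the 7 that could be tested 2 were lowered and none raised, while all 7 were lowered with the satellite glia covariate and none on the authors' regularized log2 values. Ldha, the lactate dehydrogenase subunit of glycolytic tissue, was raised (473 ± 57 CPM, log2FC 1.09, SE 0.13, adjusted p = 7.1e-08), while Ldhb, the subunit of oxidative tissue, was lowered against each (13.1, 11 and 10.03 CPM against 38.4 to 571, log2FC -3.81, SE 0.29, adjusted p = 2.6e-11). Cytosolic ribosomal protein genes were raised in 50 of 63, 7 against each subtype, and lowered in none (median log2FC 1.27). Their summed level was 2696 to 3032 CPM in the nonpeptidergic libraries and 785 to 1876 elsewhere. The count of raised members was 26 on the authors' regularized log2 values and 35 with a term for read-length class. Against each subtype it was 2 with either of these and 21 with the satellite glia covariate. Rplp1 was at 191 ± 16.7 CPM (log2FC 2.41, SE 0.39, adjusted p = 1.4e-05), and pseudogenes of this family can share its reads.

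Genes of other cells and of cell state were read beside these. Of 11 Schwann cell genes tested, 2 were raised and 4 lowered, or 1 and 2 with the satellite glia covariate. Pmp22, a myelin gene that neurons also express, was raised against the mean (1785 ± 52.1 CPM, log2FC 1.16, SE 0.15, adjusted p = 3.0e-07) beside 2429 ± 158 in C-LTMRs, and Mbp, myelin basic protein, was lowered against each (14.5 ± 3.41 CPM, log2FC -2.20, SE 0.26, adjusted p = 1.3e-07). Macrophage genes summed to 2.17 to 7.65 CPM, with Cx3cr1 and C1qc at 0, endothelial genes to 2.31 to 5.74 CPM and erythroid genes to 0.321 to 0.74 CPM. Immediate early and stress genes had 3 of 24 raised and 8 lowered, with Arc (0.429 ± 0.046 CPM, log2FC -4.32, SE 0.35, adjusted p = 1.1e-10) and Nr4a1 (4.61 ± 2.27 CPM, log2FC -2.18, SE 0.39, adjusted p = 4.7e-05) lowered against each. Of 10 axon injury genes 1 was raised and 2 lowered, near the 13.7% and 16.9% of all genes.

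**Figure D5:**
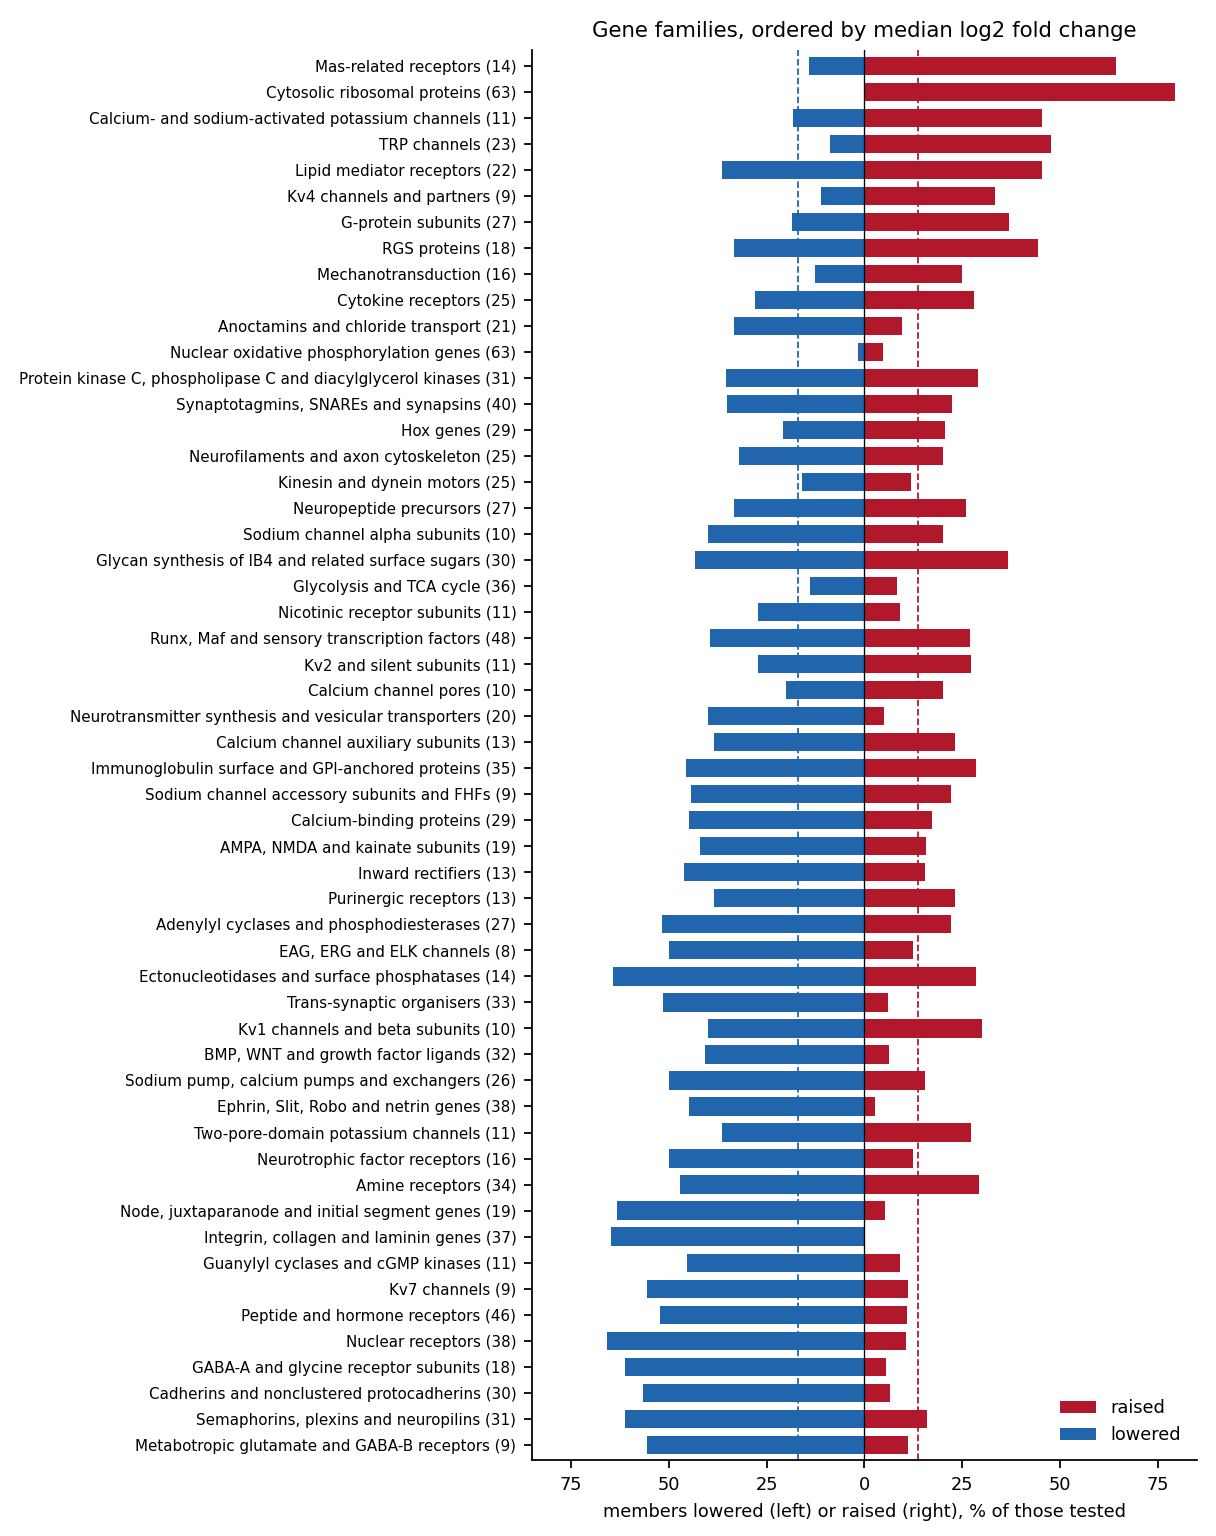
Share of tested members (percent, x axis) lowered (left) or raised (right) in nonpeptidergic nociceptors for each gene family of at least 8 tested members (y axis, number tested in brackets), ordered by median log2FC; dashed lines give the 16.9% and 13.7% of all genes. Ribosomal proteins and Mas-related receptors have the largest raised shares of the families drawn, and nuclear receptors, integrins with collagens and laminins, and guidance genes have large lowered shares.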

How the data were processed

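RNA was measured in 26 libraries of 8 sorted subtypes. The authors deposited raw read counts per Ensembl gene, regularized log2 values and RPKM for the same libraries. The authors' alignment summary gives read-length ranges, counts of mapped reads, and mapping and exonic shares as a fraction. The submitters' processing notes list FastQC 0.11.3, STAR, Cuffdiff, HTSeq 0.6.1, DESeq2 1.14.1 and the mm10 build, and give none of them a role. How counting treated strand and shared reads is not given in the sources used here, so antisense partners and near-identical copies are uncertain.

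The deposited counts were tested in R 4.3.3 with edgeR 4.0.16. After filterByExpr 17411 of 39017 genes remained. Scaling was by TMM, and a robust glmQLFit after estimateDisp had a common dispersion of 0.107, a coefficient of variation of 0.327. The contrast was the nonpeptidergic group minus the mean of the other 7, and 9398 genes had an unadjusted p under 0.05. An SE is the log2FC over the square root of F. CPM used TMM-scaled library sizes. The mean log2 values of a list used a prior count of 2, but were divided by library sizes out of order and so also follow depth. The satellite glia covariate was such a mean. Between libraries of 1 subtype the variance was at least 9.16 times what counting gives, so no 2 libraries were taken as 1. The fit was tested on simulated data with the same groups and 17411 genes. It called 35 of 62 genes changed by a log2 of 1, all 71 changed by 2 and all 67 changed by 3, and 7 unchanged genes. The simulation had no other differences between subtypes, the same dispersion for every gene and changes only in well-counted genes. These rates therefore need not hold for the real data. Replicate numbers did not pair libraries: same-numbered libraries of different subtypes had deviations correlated at -0.07 to 0.04 over 21 pairs.

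The subtype, its markers and the 76 gene lists were chosen with earlier results of these data known. Named genes are the 4 markers, the 12 largest rises and 12 largest falls without overlap between libraries at 5 CPM or more, and the 8 genes furthest from every other subtype in each direction. They also include the 10 absent genes with the highest level elsewhere and up to 4 members of each list in each direction at 5 CPM or more, with members that did not pass given as values; not all are printed, some are not reported here, and provisional symbols (Gm numbers, Rik clones) were passed over but for 1. No fold is printed against a group without counts. Alternatives used limma 3.58.1, DESeq2 1.42.0 and other filters, scalings and covariates. Promoter windows came from RefSeq. Tables and figures were made in Python 3.11.15 with matplotlib 3.10.9, SciPy 1.17.1, pandas 2.3.3 and NumPy 2.4.6.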

Additional observations from a re-analysis of the deposited data

Results flagged for a closer look

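In Aβ RA-LTMR library 4, P2rx3 stood at 10.1 CPM, while the other 4 libraries of that subtype lay between 3.81 and 4.53 CPM. The gap took 0.886 of the whole range, above the limit of 0.71 for 5 libraries. The 4 marker genes and the satellite glia score gave 5 such checks in this subtype, which alone has more than 3 libraries. Chance flags about 1 group in 20. All 5 libraries of that subtype were below the nonpeptidergic libraries.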

How the results depend on the processing

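Over 43 alternative fits (26 of which left out 1 library each), 202 of the 229 named genes kept their direction and their side of the threshold in every fit that gave a value. This number is about calls against the mean, and calls against each subtype were less stable. Testing against a log2FC of 1 gave 1307 raised genes, 104 raised against each subtype and 635 lowered against each. It ended 27 of the 53 raised and 29 of the 107 lowered calls against each that were followed by name. For log2(RPKM + 1) the numbers ended were 12 and 51, and for the regularized log2 values 13 and 29. On log2(RPKM + 1) there were 1435 raised, 1342 lowered and 366 lowered against each, and on the authors' regularized log2 values 1297 raised and 685 lowered against each. Leaving out 1 library at a time gave 2210 to 2570 raised, 2605 to 3098 lowered, 307 to 383 raised against each, 999 to 1187 lowered against each, and 24 to 72 absent genes. With at most 0 counts 4 genes were absent and with at most 10 counts 81, and the limit of 3 counts rests on the summed depth. The replicate block, on numbers that do not pair the libraries, gave 2482 raised, 2948 lowered, 391 raised against each and 1140 lowered against each. The sign of Piezo2, which was not called, turned with the satellite glia covariate (log2FC -0.0465), and the cause was not tested. No call of a named gene changed direction. Across the scalings checked, the median log2FC of all genes lay between -0.07 and 0.07.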
